A study of Mus musculus with 4 samples.

Results

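The 35 genes described here encode the enzymes, the main glucose transporter and the regulators of glycolysis, gluconeogenesis and the pentose phosphate pathway. They were chosen by name, with earlier results of these data known. A gene counted as measured when the array's annotation gave at least 1 probe set its symbol alone, and its brightest probe set by mean over the 4 arrays stood for it. By that rule 32 of the 35 were measured among 18194 genes in all, and Gpi1, Eno1 and G6pdx were not analysed here. Of the 32, 27 were in the brighter 50% of genes by mean (9097 genes, a back-transformed mean intensity of 247 or more), and the other 5 (Hk2, Hk3, Eno2, Pfkfb2 and Pfkfb3) were dimmer and are given with that limit.

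RNA was extracted from glomeruli, the filtering units of the kidney, of male mice and read on 1 Affymetrix mouse 3' expression array for each of 4 groups. WT (wild type) mice and GC-A KO mice, called KO here, each contributed a control and an ALDO array. The KO mice lack, systemically, guanylyl cyclase A, to which the natriuretic peptides ANP and BNP bind. Every mouse, controls included, had been uninephrectomised, so all had a single kidney. Controls received 2% EtOH by continuous subcutaneous delivery and ate normal chow, while ALDO mice received aldosterone by that route and a 6% salt diet, for 3 weeks. No source used here gives the age or strain background of the mice, or says whether an array held RNA of 1 mouse or of several. A group was a single array, without replicate or test, so every difference below is a log2 difference between 2 arrays on the log2(intensity + 16) scale, the number of arrays limits its precision, and "higher" and "lower" describe these arrays only. Where 4 intensities stand together, the WT and then the KO array of the control treatment come first, followed by the WT and the KO array of ALDO.

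Glycolysis splits glucose to pyruvate with a net yield of ATP, and its hexokinase, phosphofructokinase and pyruvate kinase steps are practically irreversible. Gluconeogenesis runs the reversible steps backwards and goes around the irreversible ones with pyruvate carboxylase, phosphoenolpyruvate carboxykinase, fructose bisphosphatase and glucose 6-phosphatase. In the kidney, gluconeogenesis belongs to the proximal tubule, which oxidises fatty acids and uses little glucose, while glomerular, distal nephron and immune cells rely more on glycolysis. The pentose phosphate pathway branches off at glucose 6-phosphate and supplies NADPH and ribose 5-phosphate.

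The labelled tissue was checked against its markers first. Podocyte markers were bright, with Nphs1 (nephrin, of the slit diaphragm) at 1752, 1675, 1717 and 1899, and Podxl (podocalyxin) between 8492 and 10271. Proximal tubule markers were bright too: the summed intensity of 14 measured markers of 15 was 235084, 212234, 224698 and 191298, and the glucose reabsorbing transporter Slc5a2 had 20723, 17766, 17783 and 14088. The preparations therefore held tubular RNA as well as glomerular RNA, and in such bulk RNA fewer cells of a type and less RNA per cell cannot be told apart. Npr1, which encodes GC-A, had 92.6, 108, 60.5 and 23.4, all below 247, and no source used here places its probe set relative to the deletion, so it did not check the genotype labels. The array trimmed means were equal at 500, and 18 probe sets of spiked-in control RNA differed between the arrays of a pair by medians of -0.27 to 0.08, with the most negative value for WT ALDO minus WT control.

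**Figure D1:**
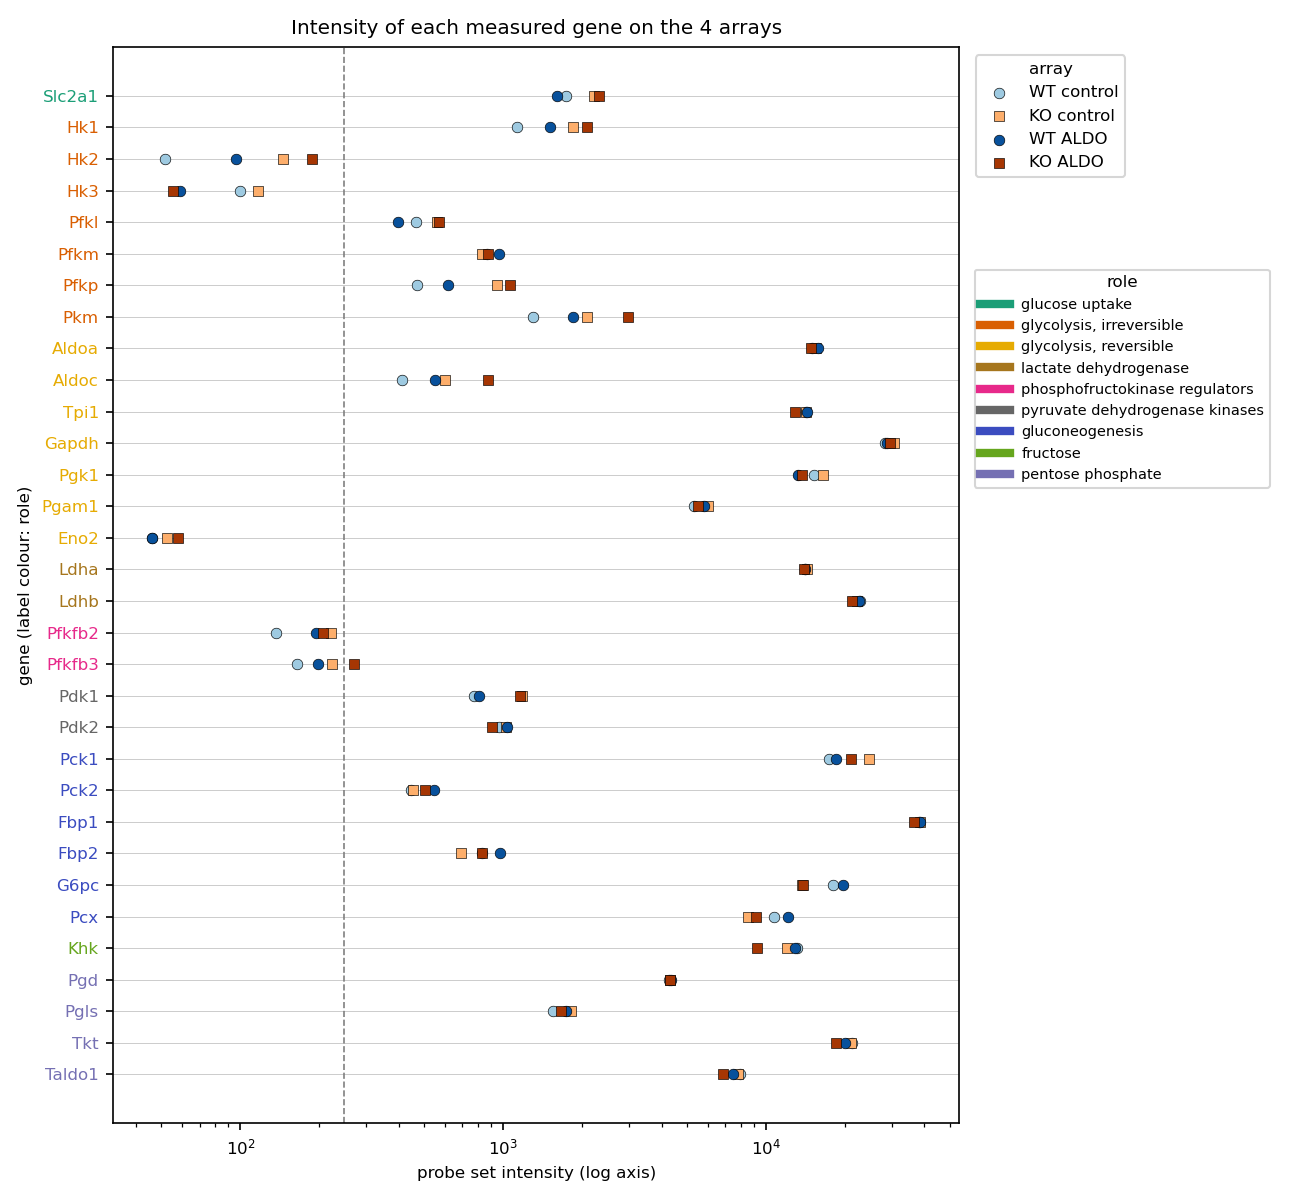
Probe set intensity (log axis) of the 32 measured genes on the 4 arrays, 1 point per array, with gene labels coloured by role. The dashed line marks 247, the low end of the brighter 50%. The 4 points of Pgd lie almost on each other (4253 to 4344), while those of Pfkp spread from 468 to 1060.

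KO was set against WT under each treatment to describe the genotype without and with aldosterone and salt. Of the 5 brighter genes of the irreversible glycolytic steps, Hk1, Pfkl, Pfkp and Pkm were higher on the KO arrays and Pfkm was not, while most reversible steps were near 0. The gluconeogenic genes were mixed: G6pc, Pcx and Fbp2 were lower, Pck1 was higher, and Fbp1 and Pck2 were near 0. Under control treatment, 0 of 27 brighter genes of the set were higher or lower by 2-fold or more, against 0.967% of all brighter genes higher and 0.176% lower. Under ALDO the count was again 0, against 1.26% higher and 0.352% lower. At a log2 difference of 0.5 or more, a limit added after the values were seen, 6 of 27 (22.2%) were higher under control treatment, against 5.61% of all brighter genes, and 0 were lower, against 2.33%. Under ALDO 6 (22.2%) were higher, against 8.78%, and 1 was lower, against 3.87%. Several of these lay close to the limit: Pck1 under control treatment (0.509) and Pfkl (0.505), Pdk1 (0.510) and G6pc (-0.506) under ALDO. With the deposited scaling, the share of higher genes in the set was thus above that of all genes under both treatments, and the share of lower genes was not. These counts depend on the scaling. With each array centred on its median, Aldoc (0.42), Pdk1 (0.49) and Pck1 (0.40) were under the limit under control treatment, and G6pc reached -0.51. Under ALDO, Pfkl (0.36) and Pdk1 (0.37) were among those under it, while Pcx (-0.55) and Khk (-0.62) passed it downwards. Shares of all genes were not computed with centring.

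Slc2a1, the transporter GLUT1 that brings glucose into many cell types, had intensities of 1726, 2205, 1597 and 2311. Both KO arrays were above both WT arrays, by 0.35 under control treatment and 0.53 under ALDO. Its 3 bright probe sets gave 0.25 to 0.35 and 0.53 to 0.57, all of the same sign.

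The hexokinases trap glucose in the cell as glucose 6-phosphate. Hk1 had 1129, 1846, 1501 and 2081. The KO arrays were the highest pair, with differences of 0.70 and 0.47. Its other probe set was dim (123 to 167 on any array) and gave -0.01 and 0.38. With the mean of both, the control difference of Hk1 was 0.35. Hk2, an isoform induced by insulin and low oxygen, was dim at 51.6, 145, 95.9 and 188. It kept the same order of arrays as Hk1, with differences of 1.25 and 0.87, but at this signal the size is uncertain and depends on the pseudocount. Hk3, an isoform of myeloid cells, was dim as well (100, 117, 59.1 and 55.5) and differed by 0.20 and -0.07. Its other probe set ordered the arrays differently, so no direction is given for it.

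Phosphofructokinase, the committed step, has 3 isoforms, and they did not behave alike. Pfkp, the platelet type, had 468, 943, 614 and 1060, the largest genotype difference of the brighter genes at 0.99 and 0.77. Both KO arrays were above both WT arrays. Pfkl, the liver type, had 464, 562, 399 and 572, with smaller differences of 0.27 and 0.50, and its next bright probe set gave only 0.05 and 0.08. With the mean of all its probe sets the control difference of Pfkl turned to -0.03. Pfkm, the muscle type, had 866, 828, 961 and 875, and its differences were slightly negative (-0.06 and -0.13). Pkm, the pyruvate kinase of most tissues outside liver, had 1302, 2092, 1844 and 2974. It was higher in KO by 0.68 under both treatments, and KO ALDO was the highest of all arrays.

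The reversible steps were mostly flat. Aldoa, the main aldolase of muscle and many other cells, had 14935, 15467, 15707 and 14876, with differences of 0.05 and -0.08. Tpi1, triose phosphate isomerase, differed by 0.00 and -0.14, and Gapdh, glyceraldehyde 3-phosphate dehydrogenase, by 0.11 and 0.03. Gapdh was read from control probe sets of the array, since its other probe sets were annotated with pseudogenes too. Pgk1 (phosphoglycerate kinase) and Pgam1 (phosphoglycerate mutase) differed by 0.10 and 0.05 and by 0.18 and -0.08. Aldoc, the brain type of aldolase, was the exception, with 412, 602, 551 and 878 and differences of 0.53 and 0.66. Its only other probe set was very dim (2.97 to 31 on any array), and with the mean of both the control difference turned to -0.35. Eno2, neuron-specific enolase, was dim at 46.1 to 58.1.

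Downstream of pyruvate, the lactate dehydrogenase subunits were nearly level across the arrays. Ldha had 13996, 14256, 14050 and 13985, and Ldhb had 22695, 22078, 22583 and 21161. On these probe sets no difference between genotypes exceeded 0.09 in size. The 4 bright probe sets of Ldhb spanned -0.13 to -0.02 and -0.20 to -0.06, all lower in KO. Pdk1, a kinase that inhibits pyruvate dehydrogenase and so keeps pyruvate from the mitochondrial oxidation route, had 772, 1181, 809 and 1159. It was higher in KO by 0.60 and 0.51, and its 3 bright probe sets spanned 0.39 to 0.93 and 0.49 to 0.53. Pdk2, a related kinase, differed by 0.09 and -0.19. The bifunctional enzymes that set fructose 2,6-bisphosphate, the activator of phosphofructokinase, were dim: Pfkfb3 had 165, 224, 197 and 271 (0.40 and 0.43), and Pfkfb2 had 137, 221, 194 and 207 (0.64 and 0.09). The 3 other probe sets of Pfkfb2, dimmer still, gave -0.28, -1.21 and -0.80 under control treatment, so no direction is given for it.

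The starts of a pair of genes that were higher on both KO arrays are shown as background on their regulatory sequence, 250 bases before to 50 after the transcription start from the RefSeq table of mouse build GRCm38.p6, read 5′ to 3′ on the gene's strand. Capitals mark ACGTG, the core of the hypoxia response element, or TGACG, part of the cAMP response element, on either strand. The table held the 35 genes with 53 starts. Slc2a1 (chr4:119108495-119108794, + strand) had 1 ACGTG, and Pfkp (chr13:6648722-6649021, - strand) had neither motif in this window.
Slc2a1: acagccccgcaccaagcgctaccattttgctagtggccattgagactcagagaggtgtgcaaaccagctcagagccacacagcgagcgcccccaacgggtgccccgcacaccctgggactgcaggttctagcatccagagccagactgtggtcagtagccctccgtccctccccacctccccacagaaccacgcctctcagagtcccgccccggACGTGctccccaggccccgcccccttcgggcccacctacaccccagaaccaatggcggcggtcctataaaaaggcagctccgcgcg
Pfkp: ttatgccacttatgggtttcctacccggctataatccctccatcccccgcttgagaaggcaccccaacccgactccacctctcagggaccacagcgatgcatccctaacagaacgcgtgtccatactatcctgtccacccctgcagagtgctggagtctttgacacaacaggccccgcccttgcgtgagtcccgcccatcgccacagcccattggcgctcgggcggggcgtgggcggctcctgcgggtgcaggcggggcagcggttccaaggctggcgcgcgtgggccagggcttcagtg
ACGTG was found in 23 of the 53 windows (43.4%) against 19.6% of all 32851 windows in the table, and TGACG in 12 (22.6%) against 20.8%. A TGACGTG would count for both motifs, and a CACGTG matches ACGTG on both strands. The windows of the set also held more CG dinucleotides, with a median of 17 against 7 for all windows, and ACGTG contains a CG. A match is a description of letters, not of binding.

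**Figure D2:**
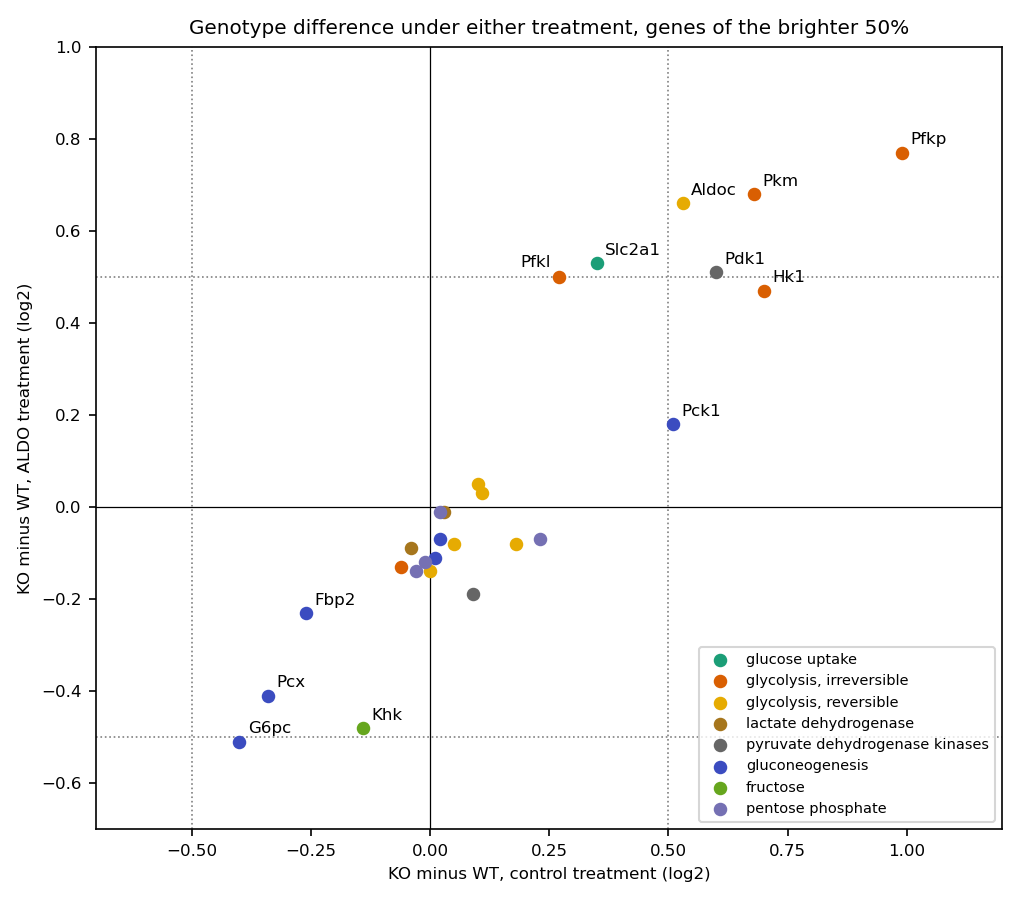
Each point is 1 of the 27 brighter genes, placed by KO minus WT (log2) under control treatment (horizontal axis) and under ALDO (vertical axis), coloured by role; dotted lines mark 0.5 in size. Pfkp, Pkm, Aldoc and Pdk1 lie above 0.5 on both axes, and G6pc, Pcx, Fbp2 and Khk lie below 0 on both.

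The gluconeogenic genes split in direction. Pck1, the cytosolic phosphoenolpyruvate carboxykinase and the classical regulated step of the pathway, had 17289, 24614, 18484 and 20977. Both KO arrays were above both WT arrays, with KO control highest, by 0.51 under control treatment and 0.18 under ALDO. Its second bright probe set gave larger values, 1.07 and 0.44, so the direction was shared and the size was not. G6pc, the catalytic subunit of glucose 6-phosphatase that releases free glucose, had 17980, 13660, 19645 and 13826. It went the other way from Pck1, lower on both KO arrays by differences of -0.40 and -0.51.

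Pcx, pyruvate carboxylase, which makes oxaloacetate from pyruvate in mitochondria, had 10747, 8515, 12126 and 9115, with differences of -0.34 and -0.41. Its 4 bright probe sets, of which 3 were control probe sets along the transcript, spanned -0.55 to -0.28 and -0.45 to -0.30, all lower in KO. Fbp2, the muscle type of fructose bisphosphatase, had 831, 692, 973 and 830. The WT arrays were above the KO arrays at the same treatment, by -0.26 and -0.23 as KO minus WT, but WT control and KO ALDO were practically equal. Fbp1, the liver and kidney type, was level at 38196, 38626, 38527 and 36650, with differences of 0.02 and -0.07. Pck2, the mitochondrial carboxykinase, had 447, 452, 547 and 506 and differed by 0.01 and -0.11. Khk, ketohexokinase, which commits fructose to metabolism in the proximal tubule, had 13157, 11962, 12887 and 9249. KO ALDO stood lowest, with differences of -0.14 and -0.48.

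The starts of Pck1 (chr2:173152823-173153122, + strand, 1 TGACG) and G6pc (chr11:101367466-101367765, + strand, neither motif) are shown because these genes of the same pathway differed in opposite directions between the genotypes.
Pck1: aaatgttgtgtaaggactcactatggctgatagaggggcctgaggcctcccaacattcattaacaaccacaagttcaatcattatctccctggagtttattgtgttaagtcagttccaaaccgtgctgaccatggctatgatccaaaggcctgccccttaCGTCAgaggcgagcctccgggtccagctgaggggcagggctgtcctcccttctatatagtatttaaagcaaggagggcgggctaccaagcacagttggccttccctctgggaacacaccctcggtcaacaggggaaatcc
G6pc: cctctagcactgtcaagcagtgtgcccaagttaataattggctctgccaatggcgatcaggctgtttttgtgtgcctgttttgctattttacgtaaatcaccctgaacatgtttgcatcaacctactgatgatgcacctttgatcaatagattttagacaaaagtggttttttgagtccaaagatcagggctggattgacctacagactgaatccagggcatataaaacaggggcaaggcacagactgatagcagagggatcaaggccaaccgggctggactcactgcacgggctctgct
The 7 windows of the 6 gluconeogenic genes had a median of 6 CG dinucleotides (range 4 to 20), and the 26 windows of the 16 glycolytic genes a median of 17.5 (range 0 to 30).

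Pentose phosphate genes differed little. Pgd, 6-phosphogluconate dehydrogenase, had 4253, 4311, 4344 and 4309, with differences of 0.02 and -0.01. Tkt and Taldo1, the transketolase and transaldolase of the branch without oxidation, differed by -0.01 and -0.12 and by -0.03 and -0.14. Pgls, the lactonase, had 1549, 1816, 1737 and 1659 and differed by 0.23 and -0.07. The median of the 4 genes was 0.01 under control treatment and -0.09 under ALDO.

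Glycolytic and gluconeogenic enzymes were then compared as groups, by the median of their differences and not by their levels, since intensities of different probe sets are not on a common scale. KO minus WT had a median of 0.18 over 11 brighter glycolytic genes and -0.12 over the 6 gluconeogenic genes under control treatment, a gap of 0.30. Under ALDO the medians were 0.05 and -0.17, a gap of 0.22. With each array centred on its own median, the median of all brighter genes under ALDO was -0.13 and the glycolytic median turned to -0.09. The gap cannot change there, since centring shifts all genes of an array alike. Without centring, the median of all brighter genes was 0.00 under control treatment and 0.01 under ALDO. Within glycolysis, the 5 brighter genes of irreversible steps had medians of 0.68 and 0.50 and the 6 of reversible steps 0.11 and -0.02.

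Per array, with each gene set to 0 at its own mean, the irreversible glycolytic steps had medians of -0.49 and 0.18 on the WT and KO control arrays and -0.09 and 0.38 on those of ALDO. The gluconeogenic genes had 0.01 and -0.17, then 0.20 and -0.02. The arrays thus did not fall in the same order for the groups: WT control was lowest for the first and WT ALDO highest for the second.

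**Figure D3:**
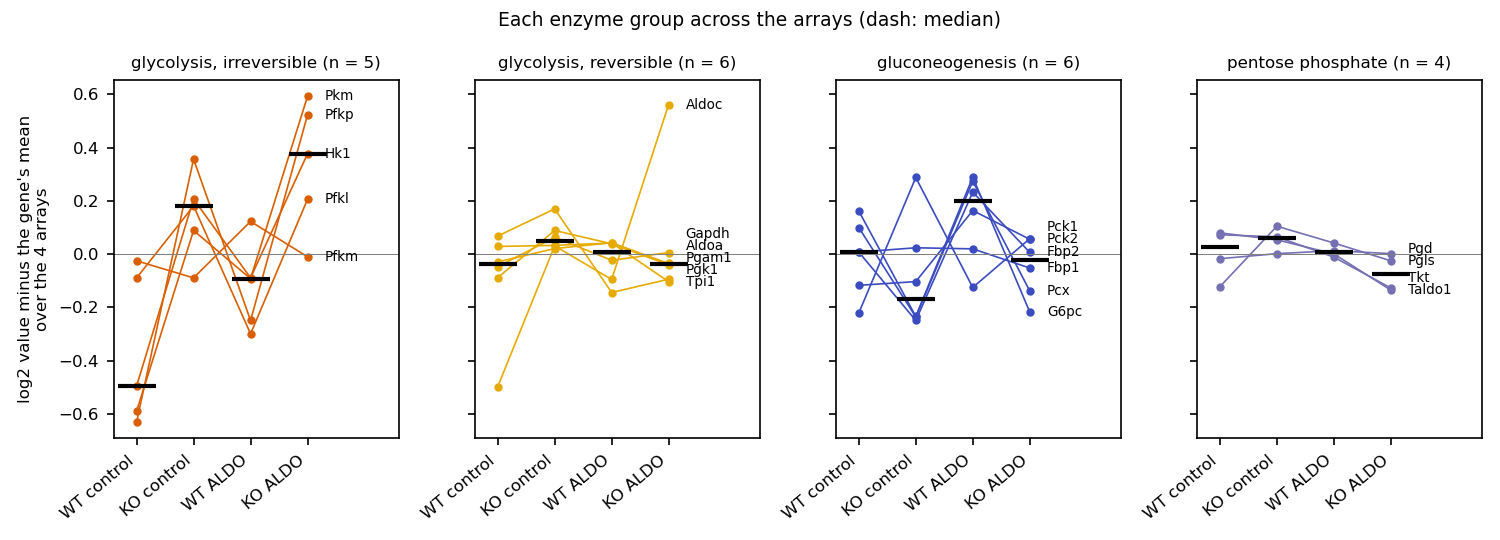
Log2 value of each brighter gene minus its mean over the 4 arrays, by array, for 4 enzyme groups; thin lines join the points of a gene and dashes mark the group median. The medians of the irreversible steps span -0.49 (WT control) to 0.38 (KO ALDO), and the medians of the pentose phosphate genes lie between -0.08 and 0.06.

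The irreversible and reversible steps also differed in brightness, and brighter genes varied less. Over the 926 genes with a mean intensity of 5000 or more, KO minus WT had a standard deviation across genes of 0.22 under control treatment and 0.26 under ALDO. Over the other 8171 brighter genes it was 0.31 and 0.36. The 14 genes of the set in the first class had medians of 0.01 and -0.09, beside -0.03 and -0.08 over all genes of that class. The 13 in the second had 0.27 and 0.47, beside 0.00 and 0.02. In the first class 1 of 14 genes (Pck1) was higher by 0.5 or more under control treatment, against 1.84% of all genes of that class, and 0 were lower, against 0.972%. Under ALDO 0 were higher (2.7%) and 1, G6pc, was lower (4.97%). In the second class 5 of 13 were higher under control treatment (Hk1, Pfkp, Pkm, Aldoc and Pdk1), against 6.03%, and 6 under ALDO, against 9.47%, and 0 were lower (2.48% and 3.74%). The split at 5000, like the limit of 0.5, was chosen after the values were seen, and the part of brightness in these differences was not tested.

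The genotype differences under the treatments share no array. Over the 27 genes, which are no independent replicates and share the arrays, Pearson's r between them was 0.92 and Spearman's rho 0.91, beside 0.59 and 0.52 over all 9097 brighter genes. The sign was the same for 18 of the 27 (10 above 0 and 8 below), or 66.7%, near the 68.6% of all brighter genes. Both KO arrays were above both WT arrays in 9 of 27 genes (33.3%, against 25% of all brighter genes) and below them in 5 (18.5%, against 23.7%), so that separation by genotype was about as frequent in the set as among all brighter genes.

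Probe sets of the same gene, which read the same RNA and say nothing about the spread between mice, were compared for the 12 genes with more than 1 bright probe set. Signs were read from rounded differences, and 0.00 counted as neither sign. So read, all bright probe sets had the same sign in 10 of the 12 for KO minus WT under control treatment. Under ALDO they did so in 9. For ALDO minus control they did so in 6 of the 12 in WT and in 7 in KO. Rounding alone excluded Tpi1 for KO minus WT under control treatment (0.00 to 0.03). It also excluded Pdk1 for ALDO minus control in WT (0.00 to 0.63). By unrounded intensity, all bright probe sets of these genes were higher in those comparisons. Among genes with values on both sides of 0, Pgk1 spanned most, from -0.54 to 0.05 for KO minus WT under ALDO.

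**Figure D4:**
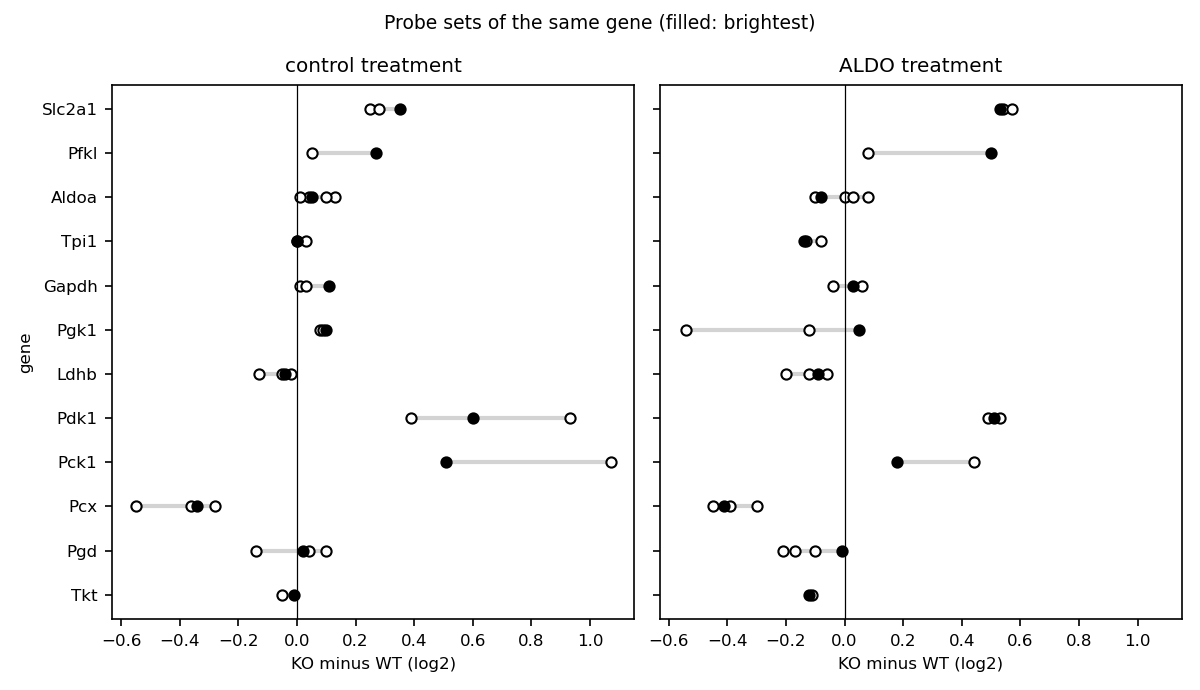
KO minus WT (log2) for every bright probe set of the 12 genes with more than 1, under control treatment (left) and ALDO (right); filled points are the brightest probe set. Pcx lies below 0 with all 4 probe sets and Slc2a1 and Pdk1 above 0 with all 3 in both panels.

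Markers of other cells moved between the same arrays. Macrophage markers were mostly higher in KO. All 8 brighter markers were above 0 under both treatments, with medians of 1.28 and 1.25. The mean used as filter includes the KO arrays, so it favours markers high there: C1qb had 145, 781, 293 and 1059. Without the filter, 12 of 12 measured markers were above 0 under control treatment and 11 under ALDO, with medians of 1.15 and 1.27. The exception under ALDO was the dim Itgam (-0.35). The summed intensity of all 12 was 6482, 13035, 6303 and 14014. Endothelial markers (10 of 10 above 0, medians of 0.43 and 0.43) and mesangial markers (6 of 6, 0.38 and 0.45) were higher as well, with sums of 17935, 23320, 21063 and 29137 and of 7680, 9649, 8871 and 12081. Podocyte markers had medians of -0.14 and 0.15 (sums of 26684, 26702, 30730 and 34123) and distal nephron markers of 0.01 and 0.23 (76659, 81719, 81841 and 88346). Proximal tubule markers were lower, with 12 of 14 below 0 under control treatment and 13 of 14 under ALDO (medians of -0.25 and -0.32). Both Pck1 differences, 0.51 and 0.18, were above the highest proximal tubule marker (0.14 under either treatment), while those of G6pc and Pcx were inside the markers' ranges of -0.48 to 0.14 and -0.60 to 0.14. The part of cell composition in the glycolytic and gluconeogenic differences was not tested. No defining marker of these lists was at 0 on any array.

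**Figure D5:**
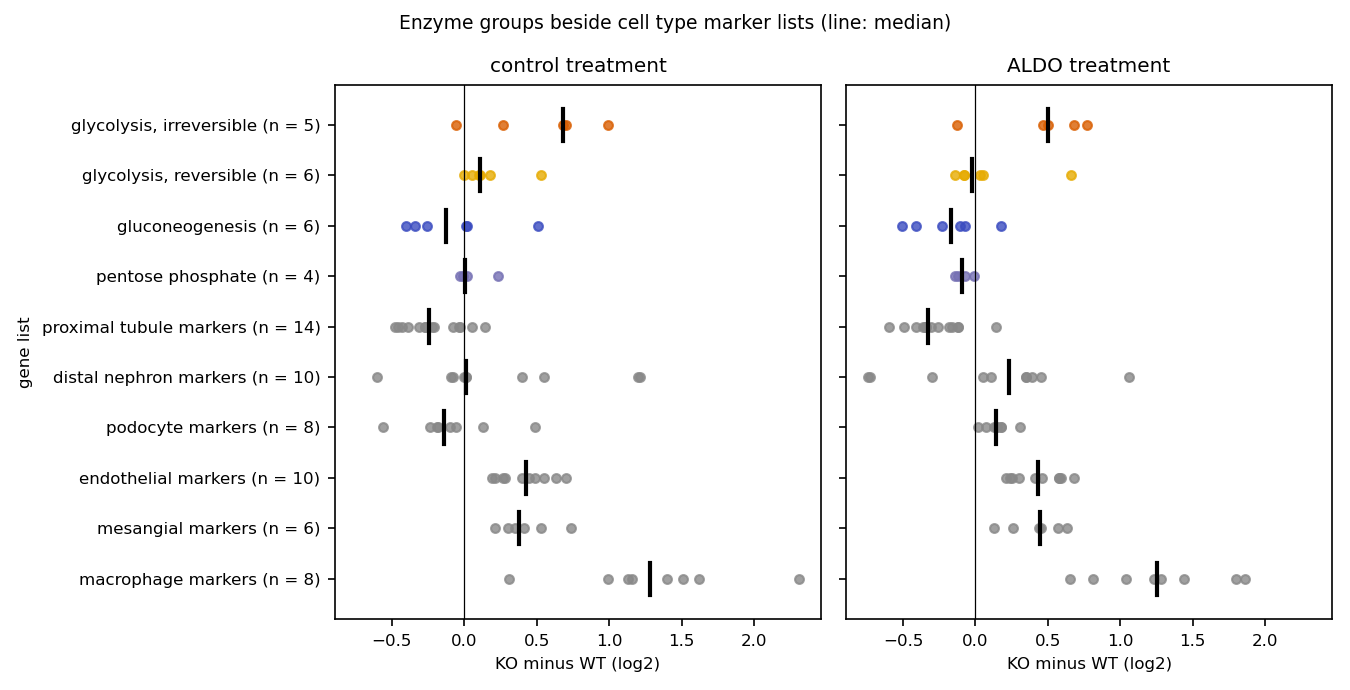
KO minus WT (log2) for the brighter genes of 4 enzyme groups (coloured) and 6 cell type marker lists (grey), under control treatment (left) and ALDO (right); 1 point per gene, black lines at medians. The irreversible glycolytic steps (medians of 0.68 and 0.50) lie between the endothelial (0.43 and 0.43) and the macrophage markers (1.28 and 1.25).

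ALDO was set against control within each genotype to describe aldosterone and salt. The 27 brighter genes ranged from -0.21 to 0.50 in WT and from -0.37 to 0.53 in KO. Between genotypes they ranged from -0.40 to 0.99 under control treatment and from -0.51 to 0.77 under ALDO. The shares of all brighter genes higher by 0.5 or more were smaller too (3.2% and 5.16%, against 5.61% and 8.78%), and those lower were 2.34% and 2.47%, against 2.33% and 3.87%. Of the 27, 0 reached 2-fold in WT (0.33% of all brighter genes higher and 0.352% lower) or in KO (0.572% and 0.132%). In WT, Pkm was highest at 0.50, followed by Hk1 (0.41), Aldoc (0.40) and Pfkp (0.38), and Pfkl and Pgk1 were lowest at -0.21. Some of these values rest on the probe set chosen: with the mean of all probe sets, dim ones included, Aldoc turned to -0.45 and Pfkp was at 0.03, and the 2 other bright probe sets of Pgk1 gave 0.09 and 0.32. In KO, Aldoc (0.53) and Pkm (0.50) were highest and Khk (-0.37), Pgk1 (-0.26) and Pck1 (-0.23) lowest. The other bright probe set of Pck1 was lower too, at -0.59. With the mean of all its probe sets Pck1 turned to 0.11. That mean includes a dim probe set (19.4 to 104 on any array) that gave 1.15. At 0.5 or more, 0 genes were higher in WT, against 3.2% of all brighter genes, and 2 in KO, against 5.16%, and 0 were lower in either (2.34% and 2.47%). Counts were made before rounding, which put Pkm just below the limit in WT (0.497) and just above it in KO (0.504). These comparisons share arrays with the genotype comparisons above: Hk1, Pfkp, Pkm and Aldoc were lowest on the WT control array, which enters both.

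As groups, the 11 glycolytic genes had medians of 0.13 in WT and 0.03 in KO, and the 6 gluconeogenic genes 0.15 and 0.06, so that the gaps were -0.02 and -0.03. All 6 gluconeogenic genes were above 0 in WT, led by Pck2 (0.28) and Fbp2 (0.22), although Fbp1 (0.01) turned to -0.02 with centred arrays and Pck2 to -0.22 with the mean of its probe sets, of which the second is dim and gave -0.72. In KO 4 of 6 were above 0, and centring turned their median from 0.06 to -0.01. Pentose phosphate genes had medians of -0.02 and -0.16, and Tkt and Taldo1 were lower on both ALDO arrays than on both control arrays. For Tkt this held for the brightest probe set only: its other bright one had 6058, 5834, 5953 and 5521, with WT ALDO above KO control. By the brightest probe set, such a separation of ALDO from control arrays held for 2 of the 27 genes upwards (7.41%, against 17.1% of all brighter genes). Downwards it held for 3 (11.1%, against 16.1%).

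The ALDO difference in KO minus that in WT used all 4 arrays and was not tested. It was below 0 for 22 of the 27 genes (81.5%), against 49.4% of all brighter genes, with a median of -0.09. Over the 926 genes with a mean intensity of 5000 or more, which include 14 of the 27, the ALDO medians were -0.01 in WT and -0.07 in KO. Over the other 8171 brighter genes they were 0.01 and 0.02. The share of genes below 0 was not computed for these classes. Of the 27, the most negative were Khk (-0.34), Pck1 (-0.33), Pgls (-0.29) and Pdk2 (-0.28), and the highest were Pfkl (0.24), Slc2a1 (0.18) and Aldoc (0.13). Of the 27, 0 reached 0.5 in size, against 5.1% of all brighter genes above and 3.41% below, and 0 reached 2-fold, against 0.594% and 0.33%.

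Of 53 further genes of glucose transport, pyruvate and fructose metabolism, 45 were measured and 36 were in the brighter 50%. Of the 36, 0 were 2-fold higher or lower between the genotypes under control treatment, against 0.967% and 0.176% of all brighter genes. Under ALDO 1 was higher and 1 lower, against 1.26% and 0.352%. Slc2a9, a urate and glucose transporter, had 267, 457, 237 and 498 and was higher in KO by 0.74 and 1.02. Pdk4, a pyruvate dehydrogenase kinase induced by fasting and fatty acids, had 428, 365, 927 and 450. Its WT ALDO array stood alone, so that KO minus WT was -0.22 and -1.02 and ALDO minus control was 1.09 in WT, the only brighter gene of the list past 2-fold there, and 0.29 in KO. Pdk4 and Pdk1 thus differed in direction between the genotypes.

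Of the other genes, Pgam2, the muscle type of phosphoglycerate mutase, had 1083, 1782, 1280 and 2381 and was higher in KO by 0.71 and 0.89. The monocarboxylate transporter Slc16a7 had 1912, 2644, 2458 and 3816, with genotype differences of 0.46 and 0.63 and ALDO differences of 0.36 and 0.53. For both genes the KO ALDO array was the highest. The fructose transporter Slc2a5 had 1878, 1177, 1322 and 937, lowest on the KO ALDO array, with genotype differences of -0.67 and -0.49 and ALDO differences of -0.50 and -0.32. Pdp2, a phosphatase that activates pyruvate dehydrogenase, had 1043, 691, 811 and 535 and genotype differences of -0.58 and -0.59, and its ALDO difference was -0.36 in either genotype. It is the opponent of the Pdk kinases.

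Slc5a1, a sodium and glucose cotransporter, had 1061, 911, 1842 and 1024. Its WT ALDO array stood alone as that of Pdk4 did, with 0.79 for ALDO in WT and -0.84 between the genotypes under ALDO. The lactate and ketone transporter Slc16a1 had 3495, 3440, 2090 and 2403, and both ALDO arrays were below both control arrays (-0.74 in WT and -0.51 in KO). H6pd, a dehydrogenase of the endoplasmic reticulum, and Galm, the galactose mutarotase, were at -0.27 between the genotypes under control treatment, and Gpd2, the mitochondrial glycerol phosphate dehydrogenase, at -0.63 under ALDO. For ALDO in KO, the insulin-responsive transporter Slc2a4 was at 0.36, Pgam2 at 0.41 and the lactate dehydrogenase Ldhd at -0.38. Hif1a, a hypoxia-inducible factor that binds sites with the ACGTG core and named here after its values were seen, had 2609, 2840, 3046 and 3121, with genotype differences of 0.12 and 0.03.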

How the data were processed

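The deposited table held probe set intensity on a linear scale, 1 column per array, which the authors had made with Affymetrix Expression Console, per the submitters' processing notes; no source used here gives its version, algorithm or background correction. The values showed a trimmed mean (2% left out at either end) of 500 on each of the 4 arrays, a scaling that hides any change of the whole transcriptome. Of 45101 probe sets, 34958 had 1 gene symbol in the array's annotation, 932 had several and 9211 were not listed. The first class was used, including the array's control probe sets for named mouse genes.

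Values were taken as log2(intensity + 16), which understates changes of dim genes. The brightest probe set stood for its gene, and genes were counted in the brighter 50% by mean over all arrays. With 1 array per group no p-value, standard error or enrichment test was computed, and the steps were tested on simulated data. Named were all 35 genes and, of the further pathway list, genes past 2-fold and otherwise the 3 highest and 3 lowest of each pair of arrays. The genes and lists were chosen with earlier results of these data known. Alternatives were quantile normalization, centring on the median, pseudocounts of 1 and 64, other filters on low signal and other probe set rules. Python 3.11.15, pandas 2.3.3 and numpy 2.4.6 were used.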

Additional observations from a re-analysis of the deposited data

How the results depend on the processing

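No paired analysis was possible because each group had 1 array. A median was taken to move when it shifted by more than the standard deviation of the 18 spike-in probe sets for that pair of arrays (0.06 to 0.12); of 128 such values 107 did not, and 117 kept their sign. The cause was not tested for any of the shifts below, unless the alternative's own construction shows it.

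With each array centred on its median, all brighter genes had a median of -0.11 in KO minus WT under control treatment and -0.13 under ALDO. Without centring these medians were 0.00 and 0.01. Centring gave glycolytic medians of 0.07, -0.09 and, for ALDO in KO, -0.04. Gluconeogenic medians were -0.23, -0.31 and -0.01, and pentose phosphate medians were -0.10, -0.23 and -0.23. The gaps of 0.30 and 0.22 could not change, since centring shifts all genes of an array alike. Quantile normalization gave gaps of 0.38 and 0.34. Without the low-signal filter the ALDO glycolytic median was 0.15 and the gap 0.32, and 1 gene (Hk2) was past 2-fold under control treatment, as 1 gene (Pfkp) was with a pseudocount of 1. In the brightest 25%, which held 7 glycolytic and 4 gluconeogenic genes, the glycolytic median was 0.11 under control treatment and -0.06 for ALDO in KO, and the gluconeogenic median for ALDO in KO was -0.03. The mean of all probe sets gave medians under control treatment of 0.07 for glycolytic and -0.26 for gluconeogenic genes, and 0.10 for pentose phosphate genes for ALDO in WT. Without _x_at and _s_at probe sets, types that can match several transcripts, the ALDO glycolytic median was 0.25 and the gap 0.41. With the limit of 0.5, 6, 7 and 2 genes of the set counted as higher or lower for KO minus WT under control treatment, under ALDO, and for ALDO in KO.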
